A study of Mus musculus with 6 samples.

Results

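The carbonic anhydrases are a family of proteins named Car in the mouse, and 10 of their genes, Car2, Car3, Car4, Car5b, Car8, Car9, Car11, Car12, Car13 and Car14, are described here in ischemic skeletal muscle. They were selected on their read counts: the counts of each gene were summed over its transcripts and over the libraries, and the listed members of the family were taken. All 10 were found among the 18089 genes of the table. The table held 6 further members, Car1, Car5a, Car6, Car7, Car10 and Car15. The summed counts of the selected genes are therefore a description. The rule itself names no difference between genotypes, but the family was chosen with earlier results of these data known, the decrease of Car4 among them, so its counts are no independent evidence.

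RNA came from the ischemic gastrocnemius, a calf muscle made mostly of fast fibres, of male C57BL/6 mice aged 8 to 10 weeks, 7 days after hindlimb ischemia (HLI). HLI was made by ligating and excising a segment of the femoral artery. One group was wild type (WT) and the other was Gpr174-/Y, a hemizygous knockout of the X-linked receptor gene Gpr174. Each group had 3 libraries, described as separate mice, and a muscle library holds RNA of fibres, vessels, nerves and infiltrating cells together. No non-ischemic muscle and no unoperated mouse was among these libraries, so every value describes injured muscle.

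Carbonic anhydrases interconvert carbon dioxide and water with bicarbonate and a proton, a reaction that lets cells move CO2, buffer acid and supply bicarbonate to enzymes. Family members differ in where they work: in the cytosol, in mitochondria, or on the outer face of the cell membrane. In muscle they help carry CO2 and lactic acid from working fibres to the blood, and some membrane forms are known targets of the hypoxia-inducible factors (HIF). Car8 and Car11 have the family fold but are known to lack CO2 hydration activity, and are called carbonic anhydrase related proteins.

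RefSeq promoter windows, which run from 250 bases before to 50 bases after a start site on GRCm38.p6, were matched to 6 of the 10 members: Car4, Car5b, Car9, Car11, Car12 and Car14. The core letters that HIF proteins are known to bind were searched on both strands as ACGTG and GCGTG, and no 2 matches overlapped in the members' windows. ACGTG was present in 19.6% of all 32851 windows, GCGTG in 32.4% and at least 1 of them in 43.8%. Stretches of 120 bases, 100 before the start site and 20 from it, are shown for the 4 membrane-bound members, of which Car4 and Car14 fell, Car12 rose and Car9 did not pass. Capitals mark CACGT, which is ACGTG on the other strand. The stretches lie at chr11:84957654-84957773 on the plus strand for Car4, chr3:95904666-95904785 on the minus strand for Car14, chr4:43506926-43507045 on the plus strand for Car9 and chr9:66713586-66713705 on the plus strand for Car12.
Car4: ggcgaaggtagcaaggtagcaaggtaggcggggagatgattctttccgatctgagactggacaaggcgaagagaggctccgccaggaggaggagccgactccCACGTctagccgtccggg
Car14: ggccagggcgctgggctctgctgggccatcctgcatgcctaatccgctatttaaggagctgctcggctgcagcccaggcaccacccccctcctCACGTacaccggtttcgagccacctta
Car9: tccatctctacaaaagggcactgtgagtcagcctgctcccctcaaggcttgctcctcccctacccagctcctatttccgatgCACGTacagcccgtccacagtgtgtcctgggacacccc
Car12: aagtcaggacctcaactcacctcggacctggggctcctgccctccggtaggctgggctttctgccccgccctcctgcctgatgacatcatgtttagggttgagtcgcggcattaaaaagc

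The ACGTG letters began 18 bases upstream of the start site in Car9, 7 bases upstream in Car14 and 2 bases downstream in Car4. The run CACGTaca of 8 bases was shared by Car9 and Car14, a likeness read after the sequences were seen, and was present in 0.304% of all windows. Car12 held neither motif in its whole window. The window of Car5b held 5 GCGTG matches, and the 2 windows of Car11 held 1 each. These matches describe letters in the windows and were not set against any binding measurement.

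The libraries held 18417107 to 18695036 counts in WT and 19173051 to 19394505 in Gpr174-/Y mice, so that 3 counts were worth 0.155 to 0.163 CPM (counts scaled to a library size of 1e6). The targeted gene Gpr174 had 8, 2 and 5 counts in WT and 1, 0 and 0 counts in Gpr174-/Y libraries. Replicate 2 lay between replicates 1 and 3 in 88.0% of 3885 genes of at least 50 CPM in WT and in 74.6% of them in Gpr174-/Y mice, where an order at random gives 33.3%. Whether the libraries of a group are independent mice was not tested, and p-values from 3 against 3 libraries would be too small if they are not. Results are therefore also given for replicates 1 and 3 alone. CPM values below were scaled by edgeR's TMM factors, and the median log2 fold change of all tested genes was then 0.00. Scaling to total counts moved that median to 0.277, towards higher levels in Gpr174-/Y mice.

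With TMM, 27.6% of the 14395 tested genes were lower and 27.0% were higher in Gpr174-/Y muscle at an adjusted p under 0.05 in edgeR's quasi-likelihood test. With total counts these shares were 14% and 50.7%. All 10 carbonic anhydrases passed the filter on low counts. Car4 and Car12 did not reach 10 counts in every library and passed through the group in which they were higher. Of them, 5 fell (Car3, Car4, Car8, Car11 and Car14), 3 rose (Car5b, Car12 and Car13) and 2 did not pass (Car2 and Car9). With total counts 4 fell, without Car11, and the same 3 rose. A decrease of over 2-fold was found for Car4, Car8 and Car14, against 4.84% of all tested genes, and an increase of over 2-fold for Car12, against 3.45%. The WT and Gpr174-/Y libraries did not overlap in 5 members that were lower and 3 that were higher, where 32.4% and 33.1% of all tested genes did not overlap in these directions. The median log2 fold change of the 10 members was -0.55, beside 0.00 over all tested genes. In this bulk tissue, fewer cells of a type and less RNA per cell cannot be told apart.

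Levels were compared between genes in TPM, which scales for transcript length. Car3 was the most abundant member in every library. Its level was 2513.14, 2771.66 and 3151.97 TPM in WT and 2004.31, 2027.56 and 2084.94 TPM in Gpr174-/Y libraries, and it made up 98.6% ± 0.36 (SD, n = 3) of the summed TPM of the 10 members in WT. By TPM, Car3 ranked 23 to 30 among all genes in WT and 47 to 48 in Gpr174-/Y libraries. The summed TPM of the 10 members was 2558.1, 2809.8 and 3185.0 in WT and 2038.0, 2061.4 and 2120.7 in Gpr174-/Y libraries. Every WT library was above every Gpr174-/Y library in that sum. Without Car3 the sum was 45.0, 38.14 and 33.0 TPM in WT and 33.74, 33.8 and 35.8 TPM in Gpr174-/Y mice, and the groups overlapped.

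**Figure D1:**
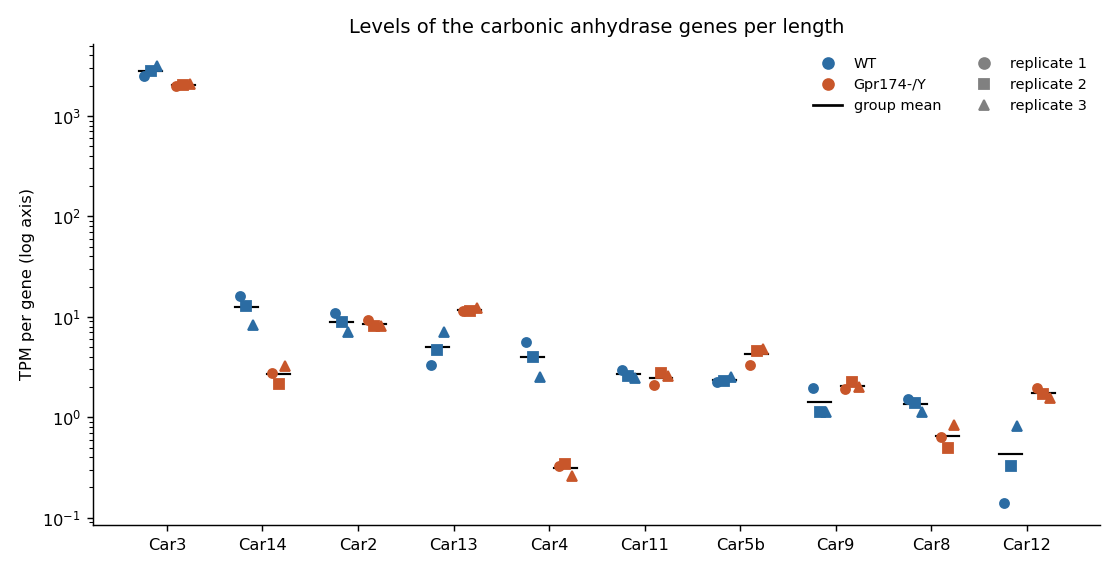
TPM per gene on a log axis for the 10 carbonic anhydrases, ordered by their WT mean, in 3 WT (blue) and 3 Gpr174-/Y (orange) libraries; symbols mark replicate numbers and lines mark group means. Car3 lies at or above 2004.31 TPM in every library, every other member lies at or below 16.23 TPM, and Car4 has the lowest level in the Gpr174-/Y libraries, from 0.26 to 0.34 TPM.

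Below Car3, the order of the members differed between the groups. In WT it ran from Car14 (mean 12.49 TPM) and Car2 (8.98 TPM) through Car13 (4.99 TPM), Car4 (4.03 TPM), Car11 (2.68 TPM) and Car5b (2.36 TPM) to Car9 (1.41 TPM), Car8 (1.35 TPM) and Car12 (0.43 TPM). Neighbours whose WT ranges overlapped were Car14 and Car2, each adjoining pair from Car13 to Car5b, and Car9 and Car8. In Gpr174-/Y mice it ran from Car13 (11.72 TPM), Car2 (8.53 TPM) and Car5b (4.23 TPM) through Car14 (2.71 TPM), Car11 (2.48 TPM), Car9 (2.06 TPM) and Car12 (1.74 TPM) to Car8 (0.65 TPM) and Car4 (0.31 TPM). Adjoining pairs from Car14 to Car12 overlapped there. These orders are a description without a test.

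Among the cytosolic members, Car3 fell and Car13 rose, while Car2 did not pass. Car3, an abundant isoform of muscle and fat with low CO2 hydration activity, had 2293, 2429 and 2605 CPM in WT and 1374, 1352 and 1337 CPM in Gpr174-/Y libraries. All WT libraries were higher and the groups were far apart, with the spread of the WT libraries larger than that of the Gpr174-/Y libraries. The log2 fold change of Car3 was -0.85 (SE 0.09, 95% interval -1.06 to -0.64), a 1.8-fold decrease, with an adjusted p of 0.000947. With total counts it was -0.58 (adjusted p = 0.00295), outside that interval, so the size of the decrease depended on the scaling. Car3 is known from both fibres and fat cells, so the marker lists of these cells are given beside it. All 9 fast fibre markers fell, and their summed level went from 73335 to 103310 TPM in WT to 40526 to 41798 TPM in Gpr174-/Y libraries. The WT library with the highest Car3, replicate 3, had the lowest summed fast fibre level. Of 7 adipocyte markers 2 rose, Adipoq and Plin1, 5 did not pass and none fell. Their summed level was 212 to 358 TPM in WT and 365 to 496 TPM in Gpr174-/Y libraries. Most of that sum was Cfd, with 159, 203 and 267 TPM in WT and 260, 276 and 319 TPM in Gpr174-/Y libraries. In TMM-scaled counts Cfd had a log2 fold change of 0.06 in edgeR (adjusted p = 0.76). The part of either cell type in the Car3 difference was not tested.

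Car13, a cytosolic isoform found in many tissues, had 4.60, 6.13 and 8.77 CPM in WT and 11.8, 11.6 and 11.9 CPM in Gpr174-/Y libraries. The Gpr174-/Y libraries lay close together and above all WT libraries, whose highest value was 1.9 times the lowest. Its log2 fold change was 0.85 (SE 0.20, 95% interval 0.37 to 1.33), a 1.8-fold increase, with an adjusted p of 0.0117. With total counts the log2 fold change was 1.11, so the size of the increase depended on the scaling.

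Car2, the fast isoform known from erythrocytes and osteoclasts among other cells, had 11.9, 9.23 and 6.80 CPM in WT and 7.36, 6.22 and 6.19 CPM in Gpr174-/Y libraries. WT replicate 3 lay within the Gpr174-/Y range and the other two WT libraries lay above it. The log2 fold change was -0.50 (SE 0.20, 95% interval -0.98 to -0.01), and the adjusted p was 0.0753. Without WT replicate 3 the log2 fold change of Car2 was -0.67 with an adjusted p of 0.00311. With all libraries and replicate number as a block it was -0.48 (adjusted p = 0.0473). Only these 2 of 19 alternatives passed. With total counts the log2 fold change was -0.22 (adjusted p = 0.31), and with limma on log2(FPKM + 1) it was -0.14 (0.384). The call thus changed with this library or with the model, and the size of the decrease depended on the scaling. All 6 macrophage and osteoclast markers rose, with a summed level of 313 to 575 TPM in WT and 1124 to 1238 TPM in Gpr174-/Y libraries. None of the 5 erythroid markers tested passed, and their list summed to 607 to 840 TPM in WT and 646 to 1743 TPM in Gpr174-/Y libraries. The part of these cells in the values of Car2 and Car13 was not tested.

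Car13, Car1, Car3 and Car2 follow each other, in this order, among the protein-coding genes of chromosome 3 in RefSeq. Of these neighbours, Car13 rose and Car3 fell, Car2 did not pass, and Car1, the erythrocyte isoform, had at most 2 counts in any library and was not tested. Car14 lies elsewhere on chromosome 3.

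**Figure D2:**
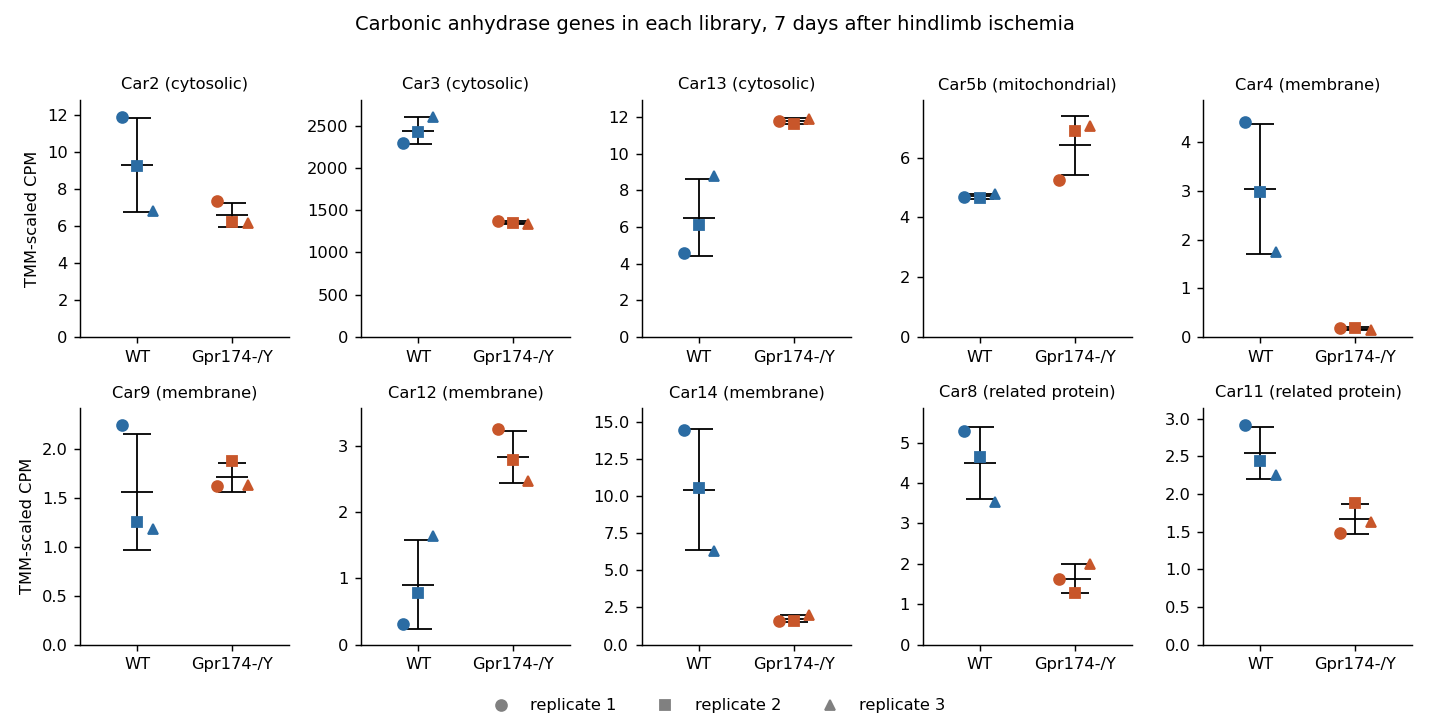
TMM-scaled CPM of each carbonic anhydrase (linear axes from 0) in the 3 WT and 3 Gpr174-/Y libraries; symbols mark replicate numbers, and black lines give the group mean with 1 SD. Groups do not overlap in 8 of the 10 panels, Car2 and Car9 being the exceptions, and WT replicate 3 is the WT library nearest to the Gpr174-/Y mean for 7 of the 8 genes that passed.

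Car5b, the mitochondrial isoform that is known to supply bicarbonate to enzymes of the matrix, had 4.67, 4.64 and 4.78 CPM in WT and 5.26, 6.88 and 7.07 CPM in Gpr174-/Y libraries. The WT libraries were nearly equal, and all Gpr174-/Y libraries were higher, with replicate 1 nearest to WT. Its log2 fold change was 0.45 (SE 0.13, 95% interval 0.13 to 0.77), a 1.36-fold increase, with an adjusted p of 0.0274. The call was lost without WT replicate 1 (adjusted p = 0.0545), WT replicate 2 (0.0899), Gpr174-/Y replicate 2 (0.1) or Gpr174-/Y replicate 3 (0.0822), with log2 fold changes of 0.37 to 0.57 when a library was left out.

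Of the membrane-bound members, Car4 and Car14 fell, Car12 rose and Car9 did not pass. Car4, anchored by a lipid to the outer face of capillary endothelium and of the muscle fibre membrane, had 71, 50 and 31 counts in WT and 4, 4 and 3 counts in Gpr174-/Y libraries. These counts correspond to 4.42, 2.98 and 1.74 CPM in WT and 0.191, 0.188 and 0.140 CPM in Gpr174-/Y mice. The groups were far apart, and the Gpr174-/Y libraries were at or just above 3 counts. The summed counts were 152 and 11. Divided by the TMM-scaled library sizes, their ratio was 17.4, with a 95% interval of 9.44 to 35.5 that covers counting error alone. The fitted log2 fold change was -4.08 (SE 0.49, 95% interval -5.25 to -2.91) with an adjusted p of 0.0013. At these counts the size of the decrease is uncertain.

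Capillary endothelium and fast fibre markers also fell. The 7 endothelial markers, all of them lower, summed to 620 to 669 TPM in WT and 462 to 486 TPM in Gpr174-/Y libraries, with a median log2 fold change of -0.82. Cdh5, the endothelial cadherin with the highest level in that list, had a log2 fold change of -0.82 (SE 0.10, adjusted p = 0.00122). The fast fibre list had a median log2 fold change of -1.45, and Tnnt3, its most abundant gene, which encodes fast troponin T, had -1.45 (SE 0.16, adjusted p = 0.0011). Whether Car4 changed beyond the share of these cells was not tested.

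Car14, a transmembrane isoform of the fibre surface and the sarcoplasmic reticulum, had 14.5, 10.6 and 6.29 CPM in WT and 1.62, 1.6 and 2.0 CPM in Gpr174-/Y libraries. All WT libraries were higher, and WT replicate 3 was the lowest of them. Its log2 fold change was -2.57 (SE 0.33, 95% interval -3.36 to -1.79), a 5.96-fold decrease, with an adjusted p of 0.0015. On the reference annotation Car14 shares 521 bases with Aph1a on the opposite strand, and strand use in the counting is not stated in the sources used here. Aph1a, a subunit of gamma-secretase, had 82.5, 88.7 and 94.6 CPM in WT and 93.6, 92.7 and 91.4 CPM in Gpr174-/Y libraries, with a log2 fold change of 0.06 (SE 0.06, adjusted p = 0.412).

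Car12 and Car9, the transmembrane isoforms known as HIF targets, had low levels. Car12 had 5, 13 and 29 counts in WT and 68, 59 and 53 counts in Gpr174-/Y libraries, that is 0.311, 0.774 and 1.63 CPM against 3.25, 2.78 and 2.47 CPM. The Gpr174-/Y libraries were all higher, and the WT libraries differed among themselves by 5.24 times, the widest spread of any member in either group. The log2 fold change was 1.61 (SE 0.41, 95% interval 0.63 to 2.59) with an adjusted p of 0.0156. It was 2.36 without WT replicate 3, and its adjusted p was 0.065 without WT replicate 2 and 0.0538 without Gpr174-/Y replicate 1, so these libraries bear on both the size and the call.

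Car9 had 2.24, 1.25 and 1.18 CPM in WT and 1.62, 1.88 and 1.63 CPM in Gpr174-/Y libraries. WT replicate 1 was the highest of all and the other WT libraries were the lowest, so the groups overlapped. The log2 fold change was 0.15 (SE 0.26, adjusted p = 0.657), and its 95% interval of -0.47 to 0.77 leaves room for a change in either direction. Without WT replicate 3 it was -0.01, and without WT replicate 1 it was 0.50. On the reference annotation Car9 shares 1782 bases with the antisense gene Gm12454, so reads of these genes cannot be told apart without strand.

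Of the 10 other HIF target genes listed, 7 fell, 2 rose (Slc2a1 and Ndrg1) and 1 did not pass in TMM-scaled counts, with a median log2 fold change of -0.51. Among those that fell, the groups overlapped in TPM for Pdk1, Egln3 and Adm, and did not overlap for Vegfa, Bnip3, Ldha and Pgk1. Over all tested genes 27.6% fell and 27.0% rose. The summed level of the 10 targets was 2994 to 4482 TPM in WT and 2739 to 2751 TPM in Gpr174-/Y libraries. Most of that sum came from Ldha and Pgk1, so it says little of the other targets. Ldha, the lactate dehydrogenase subunit of fast muscle and the most abundant of the 10, had a log2 fold change of -0.88 (SE 0.20, adjusted p = 0.00993). In TMM-scaled counts Car12 rose while most of the listed targets fell, and Car9 did not pass the test. HIF activity and the part of cell types in these values were not tested.

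The related proteins without hydration activity were both lower. Car8, which is known to bind the inositol trisphosphate receptor, had 5.29, 4.64 and 3.54 CPM in WT and 1.62, 1.27 and 2.0 CPM in Gpr174-/Y libraries. All WT libraries were higher. Its log2 fold change was -1.45 (SE 0.22, 95% interval -1.97 to -0.93), a 2.73-fold decrease, with an adjusted p of 0.00228. On the reference annotation the span of Car8 also holds the pseudogene Gm11799 and the miRNA gene Gm25355.

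Car11, a secreted related protein best known from brain, had 2.92, 2.44 and 2.25 CPM in WT and 1.48, 1.88 and 1.63 CPM in Gpr174-/Y libraries. The groups did not overlap on this scale, and the lowest WT library was close to the highest Gpr174-/Y library. The log2 fold change was -0.60 (SE 0.16, 95% interval -0.99 to -0.21) with an adjusted p of 0.0194. In TPM the values were 2.95, 2.60 and 2.48 in WT and 2.11, 2.77 and 2.57 in Gpr174-/Y libraries, and the groups overlapped. With total counts the log2 fold change was -0.33 and the adjusted p was 0.113, so the decrease of Car11 depended on the scaling. The call was also lost without WT replicate 1 (adjusted p = 0.0566), WT replicate 2 (0.0614), Gpr174-/Y replicate 1 (0.0623) or Gpr174-/Y replicate 3 (0.0547).

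**Figure D3:**
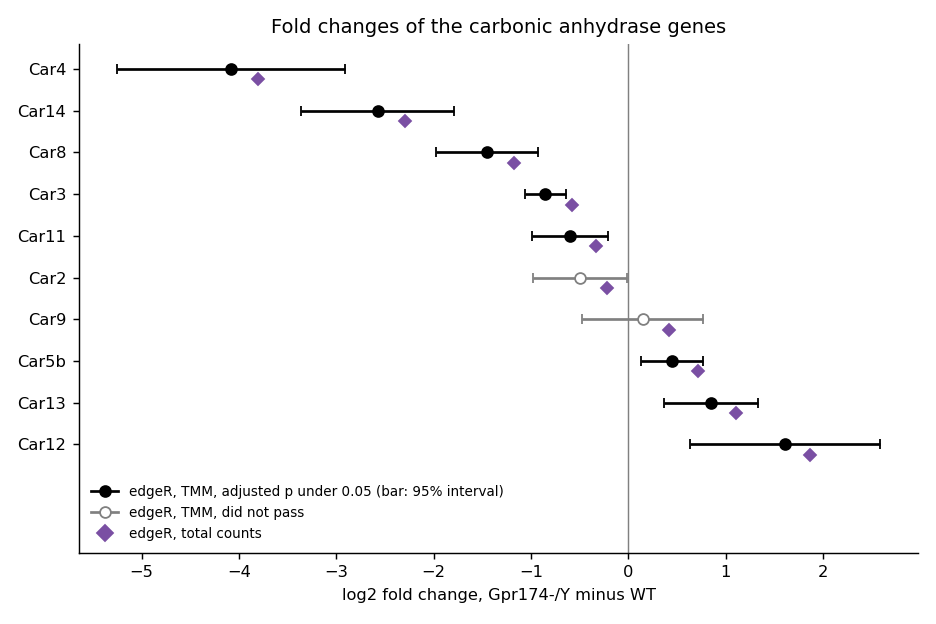
Log2 fold change of each carbonic anhydrase, Gpr174-/Y minus WT, from edgeR with TMM scaling (circles, with bars for the 95% interval, filled where the adjusted p was under 0.05) and with total counts (diamonds). Values run from -4.08 for Car4 to 1.61 for Car12, and each diamond lies to the right of its circle.

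The counts of Car3, Car5b, Car8 and Car13 each came from 1 transcript. NM_007607.2 carried 90.6% of the Car4 counts in WT and 100% in Gpr174-/Y mice, and NM_001306148.1 carried 92.4% and 100% of those of Car12. Car14 counts were spread over 6 transcripts, of which NM_011797.3 carried 44.1% in WT and 46.5% in Gpr174-/Y mice. The estimated counts of NM_011797.3 alone were 66.94, 64.01 and 99.52 in WT and 0, 12.3 and 39.25 in Gpr174-/Y libraries. Fitted on that transcript alone, the log2 fold change of Car14 was -2.48 with an adjusted p of 0.153, so its call rests on the sum over transcripts. Car11 counts shifted towards NM_009800.4, from 48.5% in WT to 77.5% in Gpr174-/Y mice, and fitted on that transcript alone the log2 fold change was 0.11 (adjusted p = 0.765). How reads were split between transcripts at such low counts was not tested.

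WT replicate 3 was the WT library nearest to the Gpr174-/Y mean for 7 of the 8 members that passed, Car3 being the exception, and for 80.2% of all genes that passed. With replicates 1 and 3 alone, the log2 fold changes were -0.85 for Car3, -4.16 for Car4, -1.28 for Car8, -0.73 for Car11, -2.51 for Car14, 0.38 for Car5b, 1.52 for Car12 and 0.82 for Car13. These had the directions of the full set. None of the 14447 genes then tested passed in edgeR after adjustment, with a lowest adjusted p of 0.0542, while 5026 genes and 6 of the 10 members had an unadjusted p under 0.05.

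Outside the selected genes, Car7, a cytosolic isoform known from muscle and brain, had 42, 46 and 51 counts in WT and 31, 27 and 31 counts in Gpr174-/Y libraries. All WT libraries were higher, and its log2 fold change was -0.97 (SE 0.13, adjusted p = 0.00175). Car15, a membrane-anchored form known from kidney, had 9, 16 and 19 counts in WT and 15, 18 and 15 in Gpr174-/Y libraries, with a log2 fold change of -0.20 (SE 0.27, adjusted p = 0.57). The other 4 members, Car1, Car5a, Car6 and Car10, had 0 to 8 counts per library and were not tested.

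Carbonic anhydrases work with transporters, channels and enzymes that move or use CO2, bicarbonate and protons. Of 46 such partner genes listed, 44 were in the table and 31 passed the filter. Of these, 13 fell, 8 rose and 10 did not pass, with a median log2 fold change of -0.26, beside 0.00 over all genes. Over all tested genes 27.6% fell and 27.0% rose, so the share of partners that rose is near the background, and the counts of the groups below stand beside the same shares. With total counts 9 fell and 12 rose, so the balance of directions depended on the scaling, as it did for all genes. The 3 that fell by over 2-fold were Aqp1, Acacb and Gpr4, and none rose by over 2-fold. In the groups below, members outside the 5 named for their size or level are named because they passed, after their values were seen.

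Of 6 bicarbonate transporters tested, the sodium bicarbonate carriers Slc4a4 and Slc4a8 fell and the anion exchanger Slc4a2 rose. In TPM the groups overlapped for Slc4a4 and Slc4a8. Of 10 genes of proton and lactate transport, 4 fell (Slc9a2, Slc16a3, Bsg and Chp1) and 4 rose, among them Slc9a5, Slc16a7 and Emb. Chp1 fell in TMM-scaled counts, while in TPM it had 71.1, 74.5 and 72.4 in WT and 75.2, 78.2 and 89.2 in Gpr174-/Y libraries. Its direction thus depended on the scaling. Slc16a3, the lactate exporter of fast fibres, had 189, 154 and 105 TPM in WT and 110, 105 and 96.8 TPM in Gpr174-/Y libraries, with a log2 fold change of -0.92 in TMM-scaled counts (SE 0.23, adjusted p = 0.015). In TPM the groups overlapped, and the call was lost without Gpr174-/Y replicate 3 (adjusted p = 0.0613) and with limma on unfiltered log2(FPKM + 1) (0.0562). Bsg, the chaperone of such exporters at the membrane, had a log2 fold change of -0.51 (SE 0.10, adjusted p = 0.00532). In TPM the Bsg values were 617, 594 and 533 in WT and 536, 535 and 536 in Gpr174-/Y libraries, and the groups overlapped.

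Aqp1, a water channel of capillary endothelium that is also permeable to CO2, had 149, 124 and 92.8 TPM in WT and 60.9, 62.8 and 67.6 TPM in Gpr174-/Y libraries. All WT libraries were higher, and its log2 fold change was -1.34 (SE 0.19, adjusted p = 0.00197). Of 7 bicarbonate-using enzymes tested, 5 fell (Acacb, Pcca, Pccb, Mccc1 and Mccc2) and none rose. In TPM the groups overlapped for Pcca and Pccb, and did not overlap for Acacb, Mccc1 and Mccc2. Acacb, the acetyl-CoA carboxylase of muscle mitochondria, had 27.0, 24.2 and 17.6 TPM in WT and 12, 13.3 and 16.1 TPM in Gpr174-/Y libraries, with a log2 fold change of -1.14 (SE 0.20, adjusted p = 0.00363). Car5b, which shares the mitochondrial compartment with several of these enzymes, rose.

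Of 7 acid sensors tested, 1 fell, Gpr4, and 3 rose, among them Gpr65 and Gpr132. Gpr4, known from endothelium, had 7.44, 8.41 and 7.82 TPM in WT and 4.46, 4.23 and 5.64 TPM in Gpr174-/Y libraries, with a log2 fold change of -1.12 (SE 0.11, adjusted p = 0.000871). Gpr65 and Gpr132 had log2 fold changes of 0.74 and 0.67. Both are known from leukocytes. Cd68, the macrophage marker with the highest level, had a log2 fold change of 1.22 (SE 0.20, adjusted p = 0.00331). The part of cell types in the partner genes was not tested.

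**Figure D4:**
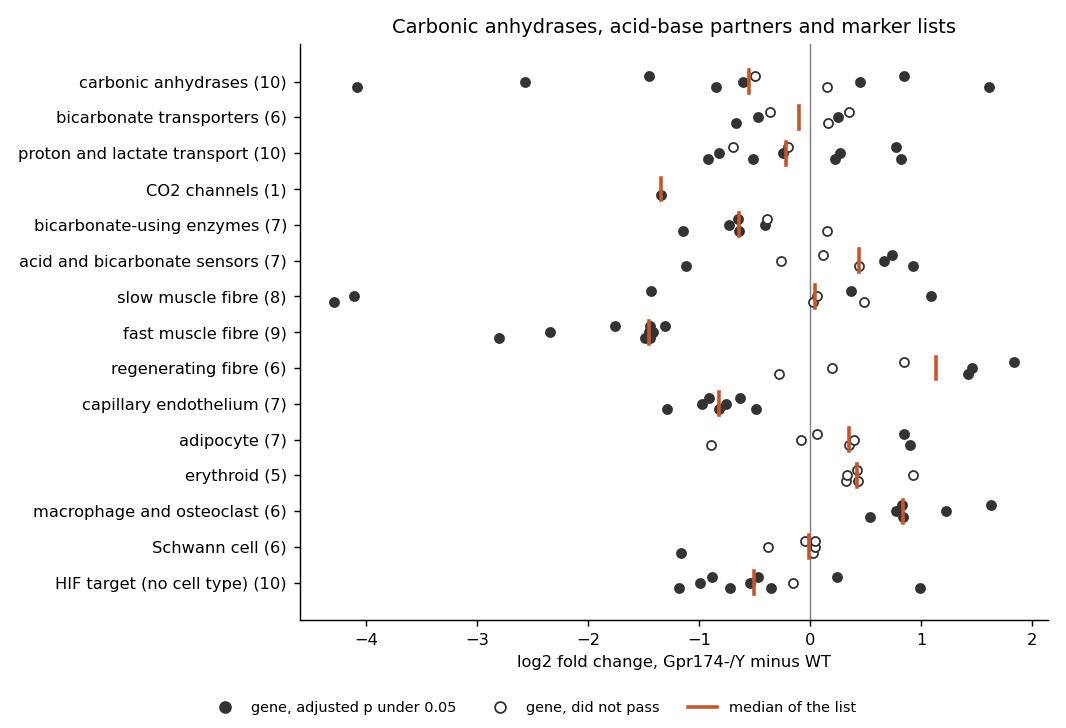
Log2 fold change, Gpr174-/Y minus WT with TMM scaling, of the tested genes of each list (points, filled where the adjusted p was under 0.05; the number tested is in parentheses) and the median of the list (orange line). The carbonic anhydrases spread on both sides of 0 around a median of -0.55, all fast fibre and capillary endothelium markers lie below 0, and all macrophage and osteoclast markers lie above 0.

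The remaining marker lists moved less uniformly. Of 8 slow fibre markers 3 fell (Myl2, Myl3 and Myh7) and 2 rose (Tnnc1 and Tpm3). Log2 fold changes were -4.29 for Myl2, -4.11 for Myl3 and -1.43 for Myh7, beside -4.08 for Car4. For Tnnc1 and Tpm3 they were 1.09 and 0.37. The most abundant slow fibre marker, Tnni1, had a log2 fold change of 0.49 (SE 0.19, adjusted p = 0.0623). Of 6 regenerating fibre markers 3 rose (Myog, Mymk and Mymx), and the most abundant, Actc1, had a log2 fold change of -0.28 (SE 0.15, adjusted p = 0.144). Of 6 Schwann cell markers 1 fell, and the most abundant, Pmp22, had a log2 fold change of 0.04 (SE 0.05, adjusted p = 0.555). Cfd, the most abundant adipocyte marker, had 0.06 (SE 0.15, adjusted p = 0.76), and Hbb-bs, the most abundant erythroid marker, had 0.33 (SE 0.38, adjusted p = 0.488).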

How the data were processed

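RNA of ischemic gastrocnemius from 3 WT and 3 Gpr174-/Y mice was sequenced on a BGISEQ platform. The deposited table lists 58843 RefSeq transcripts. It gives expected counts, which the authors left unnormalized and which estimate the reads of each transcript. The deposited FPKM and TPM values are the authors' scaling of these reads by transcript length and library size. The authors' group means were not used. The submitters' processing notes name HISAT2 2.0.4, Bowtie2 2.2.5, RSEM 1.2.12 and GRCm39, with no role for each. Strand use is not given in the sources used here.

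Samples were grouped by genotype from their titles. Expected counts were summed per gene by Entrez identifier and rounded. Symbols came from RefSeq on GRCm38.p6 and matched 99.7% of genes. Promoter sequences and start sites are RefSeq's on that build, and gene overlaps are from GENCODE M21 on GRCm38. Of 46 partner genes, Slc26a4 and Rhcg were not matched, and Pc was matched as Pcx.

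Genes were compared with edgeR 4.0.16 under R 4.3.3, using TMM factors, filterByExpr and the robust quasi-likelihood fit. P-values were adjusted by Benjamini-Hochberg over 14395 genes, with a threshold of 0.05. The fit was tested on simulated independent libraries with 200 changed genes. Far more genes passed in the real libraries, whose independence was not tested, so the simulation does not show how the fit behaves there. The labels list separate samples. The edgeR p-values set the difference between the groups against the spread of libraries within a group, estimated with information shared across genes. Intervals on counts cover counting error only. Deviations of same-numbered libraries from their group means correlated at -0.024, -0.013 and -0.035, so numbers were not treated as pairs.

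The members and the gene lists were chosen with earlier results of these data known, so no p-value is given over a list, and the decrease of Car4 had been seen before. Named genes are the 10 members, partners changed over 2-fold, the 3 partners and the 1 gene of each marker list with the highest mean TPM, and Gpr174. Alternatives were the Wald test of DESeq2 1.42.0, edgeR with DESeq2, upper-quartile or total-count scaling, voom in limma 3.58.1, limma on log2(FPKM + 1) or log2(FPKM + 0.1) for genes reaching 1 FPKM in 3 libraries or on all genes, count filters of none or of 10 in each library, a replicate block, the transcript with the most reads, leaving out each library, and replicates 1 and 3 alone. Some genes of the lists are counted but not reported here by name.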

Additional observations from a re-analysis of the deposited data

How the results depend on the processing

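Over the alternatives, 182 comparisons of single members kept direction and side of the threshold in 147, lost the threshold in 29, gained it in 2 and changed direction in 4. The adjusted p was under 0.05 in 18 of 19 alternatives for Car3, 17 of 18 for Car4, 16 of 17 for Car8, 18 of 19 for Car13 and 17 of 19 for Car14. It was under 0.05 in 11 of 16 for Car12, 12 of 19 for Car5b, 7 of 19 for Car11, 2 of 19 for Car2 and 0 of 17 for Car9. Car7 and the 5 named partners, with Aqp1 entered under both parts of the naming rule, over 133 comparisons, lost the threshold in 10 and changed direction in none.

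The 5 members that fell became 3 with limma on log2(FPKM + 1) or log2(FPKM + 0.1), whose filter removed Car8, Car9 and Car12, and 3 with the transcript with the most reads. The 3 that rose became 1 with that transcript and 1 to 3 when a library was left out, with 1 without WT replicate 2. The single increase of over 2-fold became 2 with total counts, 0 to 2 when a library was left out (0 without WT replicate 2 or Gpr174-/Y replicate 1, 2 without WT replicate 3), and 0 with 10 counts in every library, which removed Car4 and Car12, with log2(FPKM + 1) filtered or not, and with the most-read transcript. Partners that fell went from 13 to 8 with unfiltered log2(FPKM + 1). Partners that rose went from 8 to 13 with it, to 2 with the most-read transcript and to 4 to 9 when a library was left out, with 4 without WT replicate 2, Gpr174-/Y replicate 2 or Gpr174-/Y replicate 3. With replicates 1 and 3 alone, all of these counts were 0, in a fit with fewer samples.

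Car9 changed direction, to -0.20 with the most-read transcript, -0.01 without WT replicate 3 (-0.01 to 0.50 when each library was left out in turn) and -0.06 with replicates 1 and 3 alone, as did Car11, to 0.11, with the most-read transcript. The cause was not tested. With the replicate block, 5 members fell, with Car2 in and Car11 out (adjusted p = 0.0525), 2 rose and 0 rose by over 2-fold, since Car12 had an adjusted p of 0.0511, while 13 partners fell and 6 rose. Protein sequences were not used here.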
